A study of Sus scrofa with 6 samples.

Results

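A set of 1003 lncRNAs that were detected in every sample was examined in porcine preadipocytes with and without TGF-β1. A lncRNA was taken when it was the only transcript of its locus in the deposited lncRNA table and its FPKM was above 0.1 in all 6 samples, with the 10 transcripts of highest mean FPKM left out. The locus is the transcript ID without its last number, and FPKM counts fragments relative to transcript length and to sequencing depth. The table held 4908 transcripts, of which 3147 were alone in their locus and 1578 were above 0.1 in all 6 samples. Both conditions held for 1008 transcripts, and 5 of these were among the 10 left out.

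The cells were preadipocytes from subcutaneous adipose tissue of pigs aged 5 days. The NC group (negative control, 3 samples) received 10 mM citric acid and the TGF-β1 group (3 samples) received 10 ng/mL recombinant human TGF-β1, both for 48 h. The study describes the samples of a group as biological replicates, and the source labels run from Junmu No. 1 to Junmu No. 6 white pigs. Whether these numbers stand for 6 animals is not said, so a p-value measures the spread between these samples only. RNA was sequenced after removal of ribosomal RNA. In this bulk RNA, fewer cells of a type and less RNA per cell cannot be told apart.

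lncRNAs are long transcripts that are not translated into protein. Some act in the nucleus on transcription or RNA processing, and others act in the cytoplasm on mRNAs, microRNAs or proteins. TGF-β1 is a secreted cytokine that signals through receptor kinases and Smad proteins and is known to hold preadipocytes back from becoming fat cells. The lncRNAs carried only the IDs of the authors' transcript assembly, which are paired with neither gene names nor positions. No role can be read from these IDs.

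The supplement of the study gave a sequence for 3 of the 1003 lncRNAs, up to the first 399 bases. Its sequences belong to the study's list of differentially expressed lncRNAs. None of these 3 lncRNAs passed limma here at an adjusted p of 0.1. At most 300 bases of each are shown 5′ to 3′ (bases 100 to 399 of MSTRG.103462.2, and the start of the others), because the first of them had the largest difference between the groups and shared sequence with other transcripts. Capitals mark 15-base words that MSTRG.103462.2 shares with MSTRG.107540.1, a lncRNA of another locus that was not among the 1003.
MSTRG.103462.2: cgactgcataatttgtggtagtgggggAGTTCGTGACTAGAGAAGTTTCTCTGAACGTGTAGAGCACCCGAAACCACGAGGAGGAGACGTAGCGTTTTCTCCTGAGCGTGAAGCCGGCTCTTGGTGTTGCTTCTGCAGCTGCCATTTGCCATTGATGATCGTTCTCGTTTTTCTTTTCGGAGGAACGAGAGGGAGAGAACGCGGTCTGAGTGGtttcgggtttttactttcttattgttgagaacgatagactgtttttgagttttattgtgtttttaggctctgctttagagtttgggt
MSTRG.107540.1: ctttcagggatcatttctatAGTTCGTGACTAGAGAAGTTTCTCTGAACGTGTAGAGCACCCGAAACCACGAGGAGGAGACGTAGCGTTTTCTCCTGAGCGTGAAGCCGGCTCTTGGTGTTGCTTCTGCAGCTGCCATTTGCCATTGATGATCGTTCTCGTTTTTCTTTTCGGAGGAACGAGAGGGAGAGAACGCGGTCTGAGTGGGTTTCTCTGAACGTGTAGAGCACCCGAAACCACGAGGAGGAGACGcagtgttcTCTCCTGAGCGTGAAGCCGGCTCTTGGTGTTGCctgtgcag
MSTRG.23654.1: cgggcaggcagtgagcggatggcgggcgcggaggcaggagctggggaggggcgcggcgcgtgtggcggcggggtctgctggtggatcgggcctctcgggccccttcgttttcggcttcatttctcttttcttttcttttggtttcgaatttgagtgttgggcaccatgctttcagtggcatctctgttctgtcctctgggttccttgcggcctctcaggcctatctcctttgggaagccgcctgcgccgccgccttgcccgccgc
MSTRG.39388.1: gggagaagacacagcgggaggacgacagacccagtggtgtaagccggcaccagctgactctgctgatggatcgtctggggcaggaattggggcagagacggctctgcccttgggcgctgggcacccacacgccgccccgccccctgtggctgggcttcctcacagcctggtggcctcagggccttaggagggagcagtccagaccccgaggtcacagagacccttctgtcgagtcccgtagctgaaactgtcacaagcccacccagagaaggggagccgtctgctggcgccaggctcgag
Words of 15 bases were searched between these and all 41 sequences of that list, and no other sequences were searched. MSTRG.103462.2 shared an unbroken run of 186 bases (its bases 127 to 312, counted from its 5′ end) with bases 21 to 206 of MSTRG.107540.1. It also shared words with MSTRG.107541.1, which was not among the 1003 either. The longest of these runs was 50 bases (139 to 188, at bases 287 to 336 of MSTRG.107541.1). In all, 158 bases of MSTRG.107541.1 lay in 5 runs of shared words. MSTRG.23654.1 and MSTRG.39388.1 shared no word with another sequence. The GC content was 48.4% in MSTRG.103462.2, 64.2% in MSTRG.23654.1 and 65.4% in MSTRG.39388.1.

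Most of these lncRNAs were low. The mean FPKM over 6 samples had a median of 0.422 (quartiles 0.286 and 0.789) and ranged from 0.143 to 74.8. A mean between 0.2 and 0.5 was found for 536 lncRNAs and a mean below 0.2 for 51. A mean of at least 1 was found for 208, and 135 exceeded 1 in every sample. The 30 lncRNAs with a mean of at least 10 held 44.5% to 48.6% of the summed FPKM of the 1003 in a sample. This sum was 1525, 1581 and 1547 in NC and 1444, 1593 and 1476 with TGF-β1, so the groups overlapped. The 1003 made up 2.47% to 2.93% of the FPKM of the lncRNA table, since the highest transcripts of the table were left out.

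**Figure D1:**
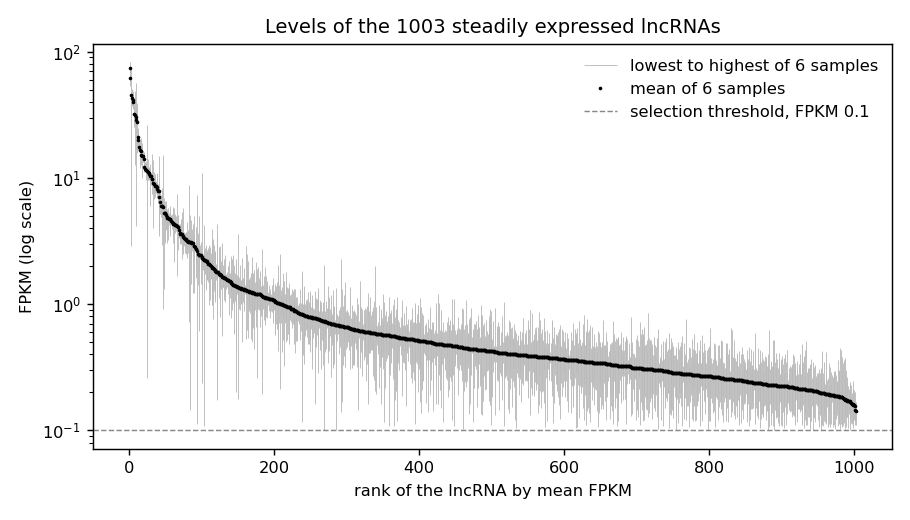
Mean FPKM (log scale) of each of the 1003 lncRNAs by rank, with a grey line from the lowest to the highest of the 6 samples and a dashed line at the threshold of 0.1. Levels drop from 74.8 at the highest rank to 0.143 at the lowest, and single lncRNAs with long grey lines occur at high and low ranks.

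The highest lncRNA was MSTRG.7382.1, with an FPKM of 79.1, 71.4 and 82.2 in NC and 74.2, 73.2 and 68.6 with TGF-β1. MSTRG.90409.1 followed with 61.4, 62.0 and 71.3 in NC and 53.1, 61.0 and 62.4 with TGF-β1. Both varied little over the 6 samples (CV, the SD over the mean, of 0.0671 and 0.0937) and their groups overlapped. MSTRG.148170.1 had 50.2, 46.1 and 40.8 in NC and 40.4, 43.1 and 37.2 with TGF-β1. MSTRG.164198.1 had 43.7, 34.8 and 35.6 in NC and 44.0, 49.1 and 40.5 with TGF-β1. The groups overlapped for these as well, and the log2 fold changes of the 4 lncRNAs lay between −0.18 and 0.23 (limma standard errors 0.30 to 0.31). MSTRG.102.2, the third by mean level, was unlike them: 2.88, 32.1 and 48.7 in NC and 43.0, 70.3 and 73.4 with TGF-β1. Its lowest NC sample was far below the other samples, and its groups overlapped (log2 fold change 1.86, standard error 1.03, limma adjusted p 0.757). Without NC replicate 1 this log2 fold change was 0.61.

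The label of single transcripts held only for the lncRNA table. Of the 1003 lncRNAs, 900 (89.7%) carried transcript number 1, and 103 carried a higher number, up to 19, so the assembly had numbered other transcripts at their loci. The median mean FPKM was 0.408 in the first group and 0.570 in the second. In 414 lncRNAs (41.3%), all 6 values equalled those of a new gene of the mRNA table to 6 decimals, so these are listed in both tables.

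Being above 0.1 in every sample did not make a lncRNA steady in level. The highest of the 6 values was a median of 2.38 times the lowest. It was under 1.5 times the lowest in 115 lncRNAs and over 10 times in 21. The CV over 6 samples had a median of 0.315, and the median within a group was 0.279 in NC and 0.270 with TGF-β1. The first is not to be compared with the others, since it rests on more samples. The CV over 6 samples fell with level, from a median of 0.353 at a mean of 0.2 to 0.5 to 0.210 at 1 to 10 and 0.128 at 10 to 100. Annotated genes above 0.1 in all 6 samples had medians of 0.391, 0.159 and 0.10 at the same levels. The 570 lncRNAs of loci with several transcripts, selected by the same threshold, had medians of 0.407, 0.295 and 0.247. These values describe the transcripts and were not tested, since the threshold acts on the same values.

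**Figure D2:**
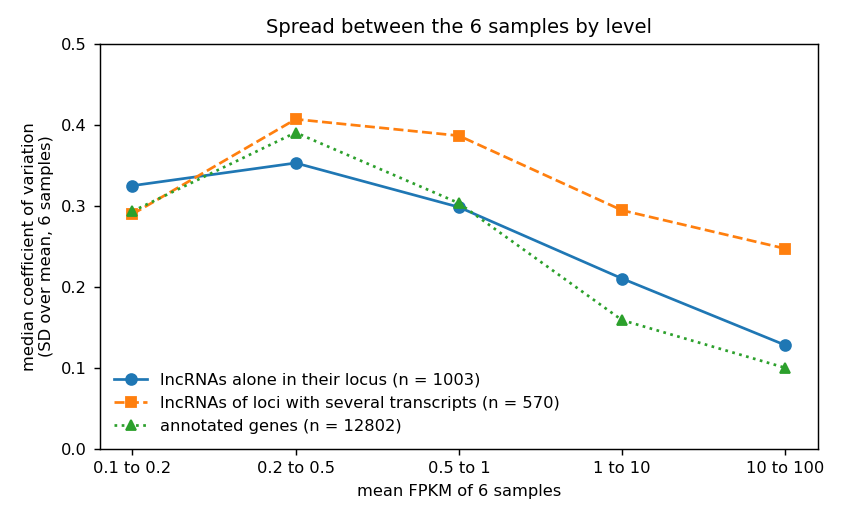
Median CV over 6 samples (vertical axis) by mean FPKM (horizontal axis, 5 classes) for the lncRNAs alone in their locus, those of loci with several transcripts and annotated genes, all above 0.1 in every sample. From 0.2 upward the spread falls with level in the 3 classes of transcript, and at 10 to 100 it is 0.128, 0.247 and 0.10.

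The lncRNA with the smallest CV was MSTRG.160374.2, with an FPKM of 2.92, 2.73 and 2.90 in NC and 2.71, 2.80 and 2.83 with TGF-β1 (CV 0.0299). MSTRG.104545.1 had 1.63, 1.75 and 1.85 in NC and 1.80, 1.81 and 1.84 with TGF-β1 (CV 0.0457). MSTRG.24911.1 was as even at a lower level, with 0.492, 0.484 and 0.431 in NC and 0.489, 0.471 and 0.499 with TGF-β1 (CV 0.0519). The groups overlapped in all 3. A CV below 0.1 was found for 38 of the 1003.

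At the other end, 8 lncRNAs had a CV above 1. MSTRG.151795.1 had the largest (1.78), with 0.239, 10.9 and 0.902 in NC and 0.240, 1.12 and 0.780 with TGF-β1. A single NC sample made up most of its signal. MSTRG.43336.1 had 0.624, 0.139 and 0.168 in NC and 0.140, 0.676 and 2.28 with TGF-β1 (CV 1.23). MSTRG.149212.3 had 2.01, 0.204 and 0.284 in NC and 0.290, 0.228 and 0.502 with TGF-β1 (CV 1.20). In each of the 3, the groups overlapped and 1 sample was far above the rest.

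The choice of 0.1 cut through a dense range of values. The lowest values just inside were 0.1002 in MSTRG.47192.1 and MSTRG.117498.1 and 0.1003 in MSTRG.103331.1. Just outside were MSTRG.122418.1 with 0.0999, MSTRG.17595.1 with 0.0998 and MSTRG.91991.1 with 0.0994. The lowest value was below 0.2 in 426 of the 1003 lncRNAs. A threshold of 0.2 kept 577 and a threshold of 0.5 kept 244.

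NC and TGF-β1 were compared to find which of these lncRNAs differ after TGF-β1. No lncRNA of the 1003 passed limma at an adjusted p of 0.1, and the smallest adjusted p was 0.169. Of all 4260 lncRNAs tested, 0.117% passed, 0.0704% higher and 0.0469% lower. These were 5 transcripts, a number that became 1 without NC replicate 1 or any single TGF-β1 sample and 9 without NC replicate 3. At an unadjusted p of 0.05 (limma), 16 were higher and 7 lower with TGF-β1, 2.29% of the 1003, against 4.46% higher and 3.54% lower among all lncRNAs tested. The threshold had removed every transcript near 0 in a group, so these shares cannot be read as a result about the 1003. The 16 fell to 7 without NC replicate 2, to 9 without TGF-β1 replicate 2 and to 10 without NC replicate 1, and the 7 to 3 without NC replicate 3 and to 4 without TGF-β1 replicate 3. With only the 1578 transcripts above 0.1 in all samples tested, a choice made after seeing the data, 32 were higher and 31 lower, and again none passed. No share over the 1578 stands beside these counts, so they are not a result about the 1003. The log2 fold change, of FPKM + 0.1, had a median of −0.09 beside −0.07 in all lncRNAs tested, and lay below 0.5 in size for 825 lncRNAs. The 95% interval of the log2 fold change reached a median of 0.88 to either side. It stayed within a 2-fold change of FPKM + 0.1 for 286 lncRNAs and within a 4-fold change for 956. For most of them a 4-fold change of FPKM + 0.1 lay outside the interval but a 2-fold change did not. At low levels the added 0.1 makes these changes smaller than those of FPKM, so a 4-fold change of FPKM itself is not excluded.

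All 3 TGF-β1 values lay above all 3 NC values in 43 lncRNAs and below them in 92, which is 13.5% of the 1003 beside 13.3% of all lncRNAs tested. By direction the shares were 4.29% and 9.17%, beside 6.01% and 7.3%. The balance depended on scaling: with median-ratio scaling 72 were separate and higher and 57 separate and lower, and the higher share moved from 31.9% to 55.8%. In the values as deposited, 252 lncRNAs were highest in NC replicate 1 and 124 to 189 in each of the other samples. After median-ratio scaling these counts were 187 in NC replicate 1 and 132 to 190 in the others. With 3 samples a group the smallest p of an exact permutation test is 0.1, so separate groups are a description.

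**Figure D3:**
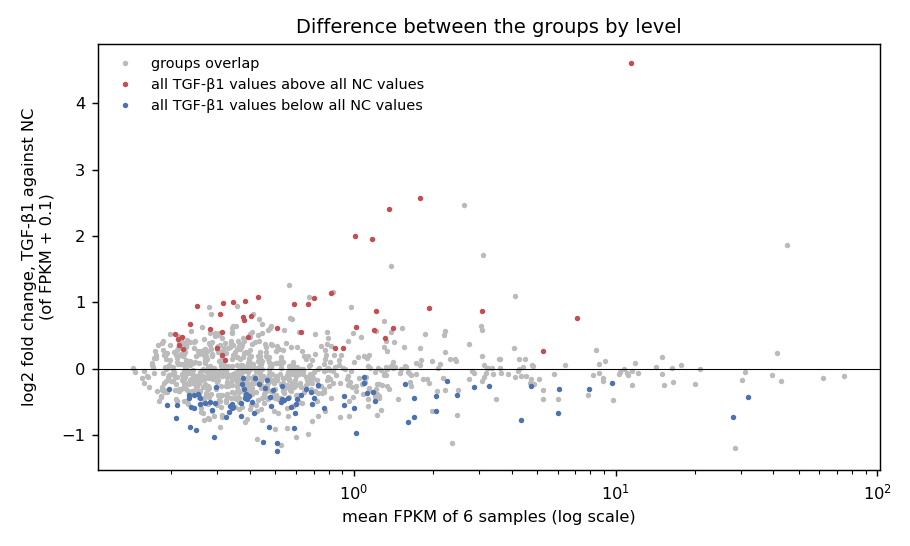
Log2 fold change of FPKM + 0.1 (TGF-β1 against NC) by mean FPKM (log scale) for the 1003 lncRNAs, with colours for the 43 whose TGF-β1 values all lie above the NC values and the 92 whose TGF-β1 values all lie below. Most points are near 0, and MSTRG.103462.2 stands alone at 4.60.

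MSTRG.103462.2 had the largest difference. Its FPKM was 0.261, 3.51 and 0.396 in NC and 26.3, 23.1 and 15.02 with TGF-β1, a mean of 1.39 ± 1.84 (SD, n = 3) and 21.4 ± 5.79 (SD, n = 3). The lowest TGF-β1 sample was above the highest NC sample. The log2 fold change was 4.60 (standard error 0.88) and the limma adjusted p was 0.169, so it did not pass. Leaving out NC replicate 2, its highest NC sample, gave a log2 fold change of 5.63 and a limma adjusted p of 0.0399. The adjusted p was between 0.0399 and 0.519 over all alternatives.

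Fragments of the 186 bases shown in capitals could have been assigned to MSTRG.103462.2 or to MSTRG.107540.1. Fragments of the words shared with MSTRG.107541.1, which held 158 such bases in 5 runs, could also have been assigned to that transcript. The values of all 3 lncRNAs are therefore uncertain. Whether further transcripts or genes hold these bases was not searched. MSTRG.107540.1 had an FPKM of 0.564, 0.0177 and 0.614 in NC and 0.639, 87.0 and 1.01 with TGF-β1, high in 1 sample only. MSTRG.107541.1 had 0.124, 0.147 and 0.228 in NC and 16.9, 0.190 and 5.99 with TGF-β1, high in the other TGF-β1 samples. MSTRG.103462.2 was high in all 3 TGF-β1 samples, and the other two were high in different ones of these. How fragments were shared between them was not tested.

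Of 7 epithelial genes, 5 were tested and KRT5 and KRT8, keratins of epithelial cells, passed (limma adjusted p 2.90e-04 and 0.0730). KRT14, COL17A1 and EPCAM did not pass, and KRT18 and CDH1 were too low to test. In all genes of the mRNA table tested, 0.096% passed. KRT5 was listed at 0 in each NC sample, beside 2.29, 1.99 and 1.95 with TGF-β1. The 7 genes summed to an FPKM of 0.0439 to 0.288 in NC and 3.97 to 5.87 with TGF-β1. In NC the sums were 0.288, 0.255 and 0.0439, beside 0.261, 3.51 and 0.396 for MSTRG.103462.2. Whether the cultures held epithelial cells, and whether such cells had a part in the value of MSTRG.103462.2, was not tested.

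MSTRG.50243.1 had the next largest difference among lncRNAs with separate groups. It had an FPKM of 0.254, 0.173 and 1.13 in NC and 1.63, 3.18 and 4.35 with TGF-β1. The log2 fold change was 2.58 (standard error 0.67, limma adjusted p 0.314). The following 3 lncRNAs by unadjusted p, picked after their values had been seen, were ordered alike: high in NC replicate 3 and lowest of the treated samples in TGF-β1 replicate 1. MSTRG.169687.1 had 0.178, 0.193 and 0.651 in NC and 0.750, 2.77 and 3.62 with TGF-β1 (log2 fold change 2.40, standard error 0.69). MSTRG.143125.1 had 0.211, 0.224 and 0.508 in NC and 0.610, 2.03 and 2.47 with TGF-β1 (log2 fold change 2.00, standard error 0.59). MSTRG.36525.1 had 0.360, 0.193 and 0.636 in NC and 0.753, 2.71 and 2.34 with TGF-β1 (log2 fold change 1.96, standard error 0.59). The gap between the groups was small in all 4 beside the spread within the TGF-β1 group. MSTRG.83323.1, also picked after its values had been seen, had 0.113, 0.795 and 1.39 in NC and 1.19, 4.88 and 7.36 with TGF-β1, and its groups overlapped.

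Differences toward lower values were smaller. The smallest unadjusted p in this direction was that of MSTRG.147124.1, with an FPKM of 0.387, 0.444 and 0.443 in NC and 0.206, 0.136 and 0.135 with TGF-β1. The log2 fold change was −1.03 (standard error 0.31, limma adjusted p 0.391). Its levels were near the added 0.1, which makes this fold change smaller than the ratio of the means. MSTRG.24579.1 had the largest difference in this direction, with 0.412, 0.762 and 1.12 in NC and 0.167, 0.339 and 0.253 with TGF-β1. The log2 fold change was −1.23 (standard error 0.44, limma adjusted p 0.492). MSTRG.78043.1 had 0.362, 0.953 and 0.902 in NC and 0.351, 0.136 and 0.348 with TGF-β1 (log2 fold change −1.12, standard error 0.48). The lowest NC sample of MSTRG.78043.1 was just above its highest TGF-β1 sample. None of the 3 passed the test.

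**Figure D4:**
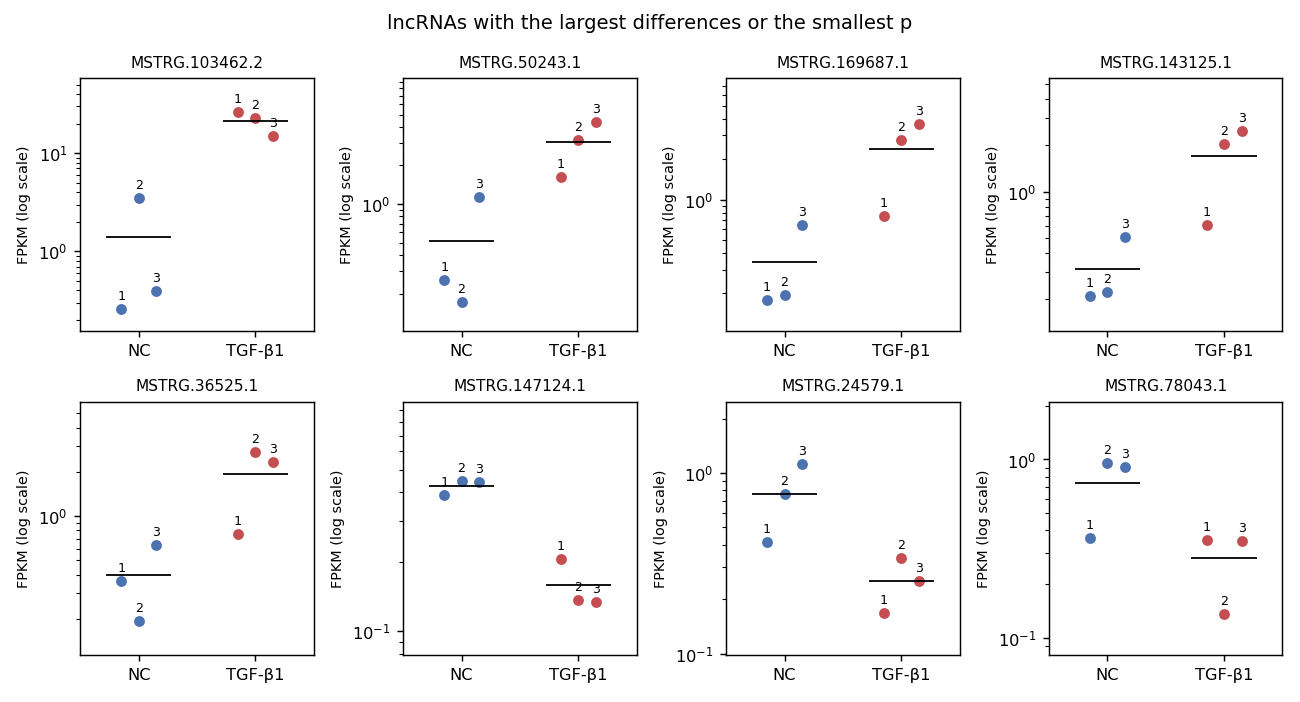
FPKM (log scale) of 8 lncRNAs in the 3 NC and 3 TGF-β1 samples, with replicate numbers beside the points and a line at the mean of each group. The groups are separate in each panel, by a wide gap in MSTRG.103462.2 and by 0.351 against 0.362 in MSTRG.78043.1.

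Separate groups with a small difference were also found among higher lncRNAs, as in 2 examples picked after their values had been seen. MSTRG.44581.1 had an FPKM of 38.8, 38.8 and 33.2 in NC and 25.4, 29.4 and 27.1 with TGF-β1, and every TGF-β1 sample was lower. Its log2 fold change was −0.43 (standard error 0.30, limma adjusted p 0.835). MSTRG.129029.1 had 1.72, 2.47 and 2.05 in NC and 1.04, 1.09 and 1.31 with TGF-β1, and its log2 fold change was −0.80 (standard error 0.32, limma adjusted p 0.594). Among the 30 lncRNAs with a mean of at least 10, 26 had a log2 fold change below 0.5 in size, 1 was separate and higher and 2 were separate and lower.

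The other lncRNAs with a known sequence had overlapping groups and did not pass, although the study lists them as differentially expressed. MSTRG.23654.1 had an FPKM of 0.664, 0.175 and 0.244 in NC and 0.207, 0.596 and 0.185 with TGF-β1, with 1 high sample in each group. MSTRG.39388.1 had 0.474, 0.370 and 0.300 in NC and 0.388, 0.691 and 0.509 with TGF-β1. FDNCR1, matched through its primers to MSTRG.142258.2, did not belong to the set, since it was not alone in its locus and was listed at 0 in NC.

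Of the 21 lncRNAs whose highest value was over 10 times the lowest, 16 had overlapping groups and 5 were separate and higher. The within-group differences of some of them were alike in both groups. MSTRG.28130.1, picked after its values had been seen like the following 3, had an FPKM of 12.6, 36.3 and 48.8 in NC and 14.6, 34.3 and 40.7 with TGF-β1, a highest value under 10 times the lowest. MSTRG.70585.3 had 0.145, 4.24 and 5.09 in NC and 1.05, 3.21 and 4.81 with TGF-β1. Replicate 1 was the lowest of its group in both lncRNAs, as in MSTRG.102.2. Others had no such order. MSTRG.148944.1 had 4.55, 52.0 and 56.1 in NC and 5.24, 49.8 and 4.15 with TGF-β1, so that its samples were either near 5 or near 50. MSTRG.18385.2 had 15.2, 0.922 and 2.77 in NC and 2.28, 12.6 and 1.15 with TGF-β1, high in 1 sample of each group.

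**Figure D5:**
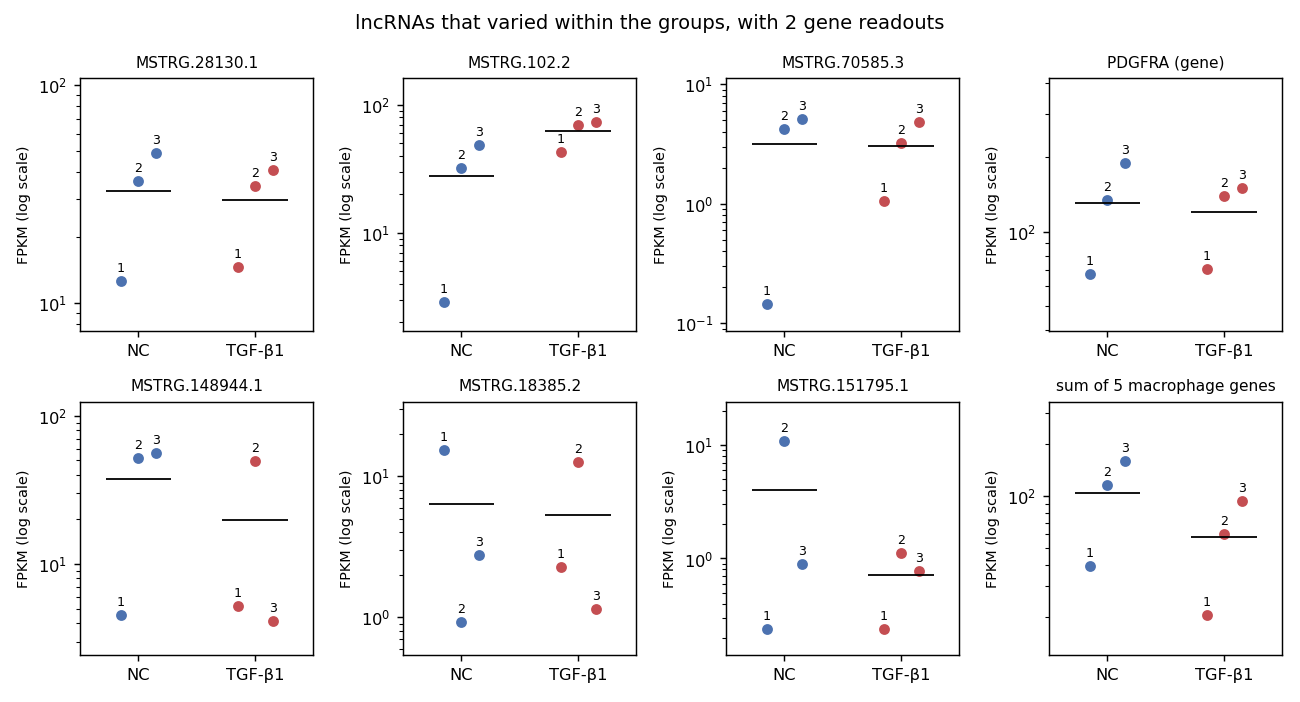
FPKM (log scale) of 6 lncRNAs, of PDGFRA and of the summed macrophage genes in the 3 NC and 3 TGF-β1 samples, with replicate numbers beside the points and a line at the mean of each group. Replicate 1 is the lowest of its group in the panels of the upper row, in MSTRG.151795.1 and in the macrophage sum. MSTRG.148944.1 and MSTRG.18385.2 have other orders.

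Some cell markers had that order as well, and others did not. PDGFRA, a receptor of preadipocytes and other stromal cells, had an FPKM of 67.3, 135 and 189 in NC and 70.4, 140 and 149 with TGF-β1. Replicate 1 was the lowest of its group in both groups for 5 of the 11 preadipocyte and stromal genes found. It was the highest in both for 1, VIM, a filament protein of mesenchymal cells, with 5594, 5009 and 4137 in NC and 4677, 4028 and 3609 with TGF-β1. The 5 macrophage genes found of 6 listed (CD163, CSF1R, CD14, AIF1 and MRC1) summed to 39.2, 116 and 158 in NC and 20.5, 60.5 and 92.9 with TGF-β1. All 5 had that order, and none passed the test. The 4 endothelial genes found summed to 5.68, 10.6 and 13.7 in NC and 4.30, 7.41 and 9.20 with TGF-β1. Nearly all of this was PECAM1, with 5.57, 10.3 and 12.9 in NC and 4.22, 7.01 and 8.54 with TGF-β1, while KDR, TEK and VWF were low. VWF had more than 1 entry, and 3 of the 5 endothelial entries had that order. DES, the muscle gene found, was highest in replicate 1 of both groups, with 425, 356 and 269 in NC and 583, 469 and 432 with TGF-β1. Of 19 TGF-β response genes, 4 were lowest in replicate 1 of both groups and 7 were highest there. These counts were 1 and 1 of 7 epithelial genes, and 1 and 0 of 4 adipocyte genes. Replicate 1 was the lowest of its group in both groups for 141 of the 1003 lncRNAs (14.1%) and the highest in both for 146 (14.6%), beside 17.3% and 19.4% of annotated genes. Replicate 3 was the lowest in both for 151 (15.1%), beside 25.5% of annotated genes. The part of other cells in these lncRNAs was not tested. Without both replicates numbered 1, the separate groups numbered 151 higher and 207 lower, a looser condition with 2 samples a group.

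The 11 preadipocyte and stromal genes found of 12 listed summed to an FPKM of 9169, 8737 and 8180 in NC and 9554, 8744 and 8175 with TGF-β1, and none passed. The 4 adipocyte genes found summed to 0.455 to 1.83, with none passing. Of the muscle genes only DES was found (269 to 583) and no erythroid gene was found. None of 31 named noncoding RNA genes was found by symbol in the mRNA table, so the 1003 lncRNAs could not be set beside these genes. The 3 known sequences were not compared with known RNAs, so whether any of them belongs to one was not tested. Of 21 TGF-β response genes, 19 were tested and none passed at an adjusted p of 0.1 (limma), with a median log2 fold change of 0.12 and 14 above 0.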

How the data were processed

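RNA sequencing measured the preadipocytes of 3 NC and 3 TGF-β1 samples, grouped by the sample titles. The authors removed ribosomal RNA, aligned reads to Sus scrofa 10.2, took expressed transcripts without coding potential as lncRNAs, and deposited FPKM values from StringTie 1.3.1. No source used here names the aligner.

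The deposited tables hold FPKM and no counts, so no count model was used. The values of these lncRNAs did not read as whole fragments (tolerance 0.03), so the reads behind them are unknown. Low genes gave relative depths of 0.740 to 1 (NC replicate 1 set to 1).

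log2(FPKM + 0.1) was fitted with limma 3.58.1 in R 4.3.3 (default eBayes) over the 4260 lncRNAs with FPKM above 0.1 in at least 3 samples, with Benjamini-Hochberg adjustment over all of them and a threshold of 0.1. Tables were handled with pandas 2.3.3 and figures drawn with matplotlib 3.10.9 in Python 3.11.15. The fit was tested on simulated data. The threshold of the selection used the same FPKM values.

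Named were the 5 highest lncRNAs, the 2 largest differences in each direction among separate groups, the 2 smallest unadjusted p in each direction, the 3 smallest and 3 largest CVs, the 3 lncRNAs on each side of the threshold and those with a sequence. Others are said to be picked after their values had been seen. Marker and TGF-β lists were looked up by symbol. The values of some listed genes are not reported here. The lncRNAs and lists were chosen with earlier results of these data known. Alternatives were other pseudocounts, filters, scalings, fits and selection thresholds, the replicate block, and leaving out samples.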

Additional observations from a re-analysis of the deposited data

How the results depend on the processing

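No lncRNA of the 1003 passed an adjusted p of 0.1 (limma) under any alternative except without NC replicate 2, where MSTRG.103462.2 passed. Leaving out a sample gave 0 to 1 passing lncRNAs, 7 to 21 higher and 3 to 7 lower at an unadjusted p of 0.05, a median log2 fold change of −0.11 to −0.06, 77 to 94 separate and higher and 142 to 189 separate and lower, the last a looser condition by construction. The median CV was 0.209 to 0.279 in NC and 0.207 to 0.270 with TGF-β1. The upper values are those of the full groups, and the lower ones rest on fewer samples, so they are not comparable.

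At an unadjusted p of 0.05, a pseudocount of 1 gave 25 higher and 26 lower, one fit over mRNAs and lncRNAs gave 33 and 55, and testing only transcripts above 0.1 in all samples, chosen after seeing the data, 32 and 31. A mean FPKM of at least 1 gave 10 higher among the fewer lncRNAs tested. Lower counts were 4 with either median-ratio scaling, 3 with scaling to the mean total, 15 with a trended and robust fit and 3 without both replicates numbered 1 (chosen after seeing the data). The median log2 fold change was −0.036 with a pseudocount of 1, 0.0023 with median-ratio scaling and −0.015 with median-ratio scaling by the mRNA table. Separate groups numbered 72 higher and 57 lower with median-ratio scaling, 69 and 59 with that by the mRNA table, and 151 and 207 without both replicates numbered 1. The cause was not tested.

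A threshold of 0.2 left 577 lncRNAs, with 6 higher and 3 lower at an unadjusted p of 0.05 (limma). Of these 577, 25 were separate and higher and 65 separate and lower, and the median CVs were 0.213 (NC) and 0.211 (TGF-β1). A threshold of 0.5 left 244, with 1 and 1 at an unadjusted p of 0.05, 11 and 30 separate, and median CVs of 0.159 and 0.167. The log2 fold change of MSTRG.23654.1 (−0.08) was 0.0036 with median-ratio scaling, 0.54 without both replicates numbered 1, and −0.49 to 0.36 when a sample was left out.

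The replicate numbers were not taken to pair the samples, since not every correlation of the deviations of same-numbered samples was above 0.1. These were 0.162, −0.034 and 0.090 over the 1003 lncRNAs and 0.251, 0.004 and 0.196 over the genes of the mRNA table. Between replicates 1 and 3 of different groups they were −0.111 and −0.174 over the lncRNAs and −0.235 and −0.21 over the genes. The other pairs of unlike number lay from −0.061 to 0.096 and from −0.041 to 0.04. What same-numbered samples share was not tested. A replicate block left 0 passing, 12 higher and 4 lower at an unadjusted p of 0.05, and changed no call of a named lncRNA. Of all lncRNAs tested, 5 passed, against 1 with the block, 43 with a pseudocount of 0.01 and 14 with one fit over mRNAs and lncRNAs. Values near the threshold of 0.1 may rest on few fragments, and the depth behind each is unknown.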
